A study of Mus musculus with 16 samples.

Results

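The RNase footprints on *mt-Nd1* and *mt-Nd2*, the mitochondrial mRNAs of the complex I subunits ND1 and ND2, numbered 26 of the 302 footprints of the series. They were all plus-strand footprints of both lists whose largest overlap with a gene on the same strand, of at least 1 nt, was with *mt-Nd1* (chrM:2751-3707) or *mt-Nd2* (chrM:3914-4951) in mm10. *mt-Nd1* carried 15 of them and *mt-Nd2* carried 11.

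Heart mitochondria came from 12-week-old male C57BL/6N mice, either *Lrpprc* loxP/loxP controls (WT) or *Lrpprc* loxP/loxP,Cre+ knockouts (KO), in which Cre deletes *Lrpprc* in heart and skeletal muscle only. The lysates received RNase If (0.01 U/µl), T1 (0.1 U/µl) or A (10 U/µl), or no enzyme in a mock digestion. This gave 4 libraries per genotype, 1 per treatment, which were combined into 1 track per genotype, so no value below has an error between mice. The lists hold no level of *Lrpprc* itself, and its loss was not checked here. Control-called footprints were found in the WT track and had a higher F score in the KO. Knockout-called footprints were found in the KO track and had a lower F score there than in the WT.

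LRPPRC is a pentatricopeptide repeat protein that works in a complex with SLIRP and is known to stabilize mitochondrial mRNAs and their poly(A) tails. ND1 and ND2 are hydrophobic core subunits of the membrane arm of complex I, the NADH dehydrogenase of the respiratory chain. Their mRNAs are cut out of a long precursor at the tRNAs on either side. RNase A cleaves after pyrimidines, RNase T1 after unpaired guanines and RNase If in single strands of any sequence, so that a stretch cleaved less than its flanks may be covered by protein or folded.

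The C score is the log10 ratio, at each nucleotide, of the highest RNase-treated 5′ coverage over the mock-digested coverage. Both coverages were normalized to library size and had 1 added, so thin coverage pulls the score toward 0. Values above 0 mean more ends in the highest of the RNase treatments than in the mock. The F score of a footprint adds the central accessibility over the left flank to that over the right flank, each flank being 3 nt. An F score of 2 would mean equal accessibility, and lower values mean stronger relative protection. Each value given for a footprint is its score in the track it was called on. The central C score and the change in F score were used in the calling, so that differences in score between the lists are described and not tested.

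In genome order, *mt-Nd1* (957 nt, 319 codons with the stop codon) lies between the tRNA genes *mt-Tl1* and *mt-Ti*, and *mt-Nd2* (1038 nt, 346 codons) between *mt-Tm* and *mt-Tw*. Both annotated genes hold coding sequence from the first nucleotide to a TAG stop codon, and each shares its last 2 nt with the tRNA gene downstream. The lengths and ends given below for the mRNAs are those of the annotated genes, and the ends of the processed transcripts were not measured here. All 26 footprints are therefore exonic and within the open reading frame. The reference genome was that of mm10, and all sequences are the plus strand of chrM, written 5′ to 3′ with T for U.

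In 5 windows, a control-called footprint touched a knockout-called one or lay within 3 nt of it. These windows are shown first because they hold 6 of the 13 control-called and 7 of the 13 knockout-called footprints of both mRNAs. These shares (46.2% and 53.8%) are near those over all plus-strand mRNAs. There, 39.2% of the 102 control-called and 59.7% of the 62 knockout-called footprints lay within 3 nt of the other list. Each window is printed with the control-called footprints in capitals and again with the knockout-called footprints in capitals, with 3 nt of flank at either end.
mt-Nd1 chrM:2796-2834, control-called: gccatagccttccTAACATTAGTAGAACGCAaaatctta
mt-Nd1 chrM:2796-2834, knockout-called: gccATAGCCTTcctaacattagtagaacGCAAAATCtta
mt-Nd1 chrM:2908-2959, control-called: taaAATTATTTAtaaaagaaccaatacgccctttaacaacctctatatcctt
mt-Nd1 chrM:2908-2959, knockout-called: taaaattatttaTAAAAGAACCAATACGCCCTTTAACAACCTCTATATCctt
mt-Nd1 chrM:3456-3489, control-called: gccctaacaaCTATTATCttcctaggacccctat
mt-Nd1 chrM:3456-3489, knockout-called: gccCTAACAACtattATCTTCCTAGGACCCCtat
mt-Nd2 chrM:3955-4007, control-called: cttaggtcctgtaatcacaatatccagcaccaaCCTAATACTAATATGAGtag
mt-Nd2 chrM:3955-4007, knockout-called: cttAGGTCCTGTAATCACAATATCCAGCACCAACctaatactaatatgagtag
mt-Nd2 chrM:4055-4086, control-called: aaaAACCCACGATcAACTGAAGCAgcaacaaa
mt-Nd2 chrM:4055-4086, knockout-called: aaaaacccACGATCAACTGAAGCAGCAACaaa

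The footprints that were the longest, had the lowest F score, or came first or last along their mRNA within their list, and that lay outside these windows, are shown next, with the footprint in capitals and 3 nt of flank on each side in lower case.
mt-Nd1 chrM:3097-3123, longest control-called: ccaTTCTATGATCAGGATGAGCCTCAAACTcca
mt-Nd1 chrM:3382-3390, control-called with the lowest F score: ggtTTAACGTAGaat
mt-Nd1 chrM:3649-3673, last knockout-called: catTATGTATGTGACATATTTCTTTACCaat
mt-Nd2 chrM:4404-4412, control-called with the lowest F score: tcaTAGGGGCATgag
mt-Nd2 chrM:4594-4615, longest control-called: catCAACTCAATCTCACTTCTATGAaat
mt-Nd2 chrM:4683-4700, last control-called: cacTAACAGGATTCTTACCAAaat
mt-Nd2 chrM:4353-4390, longest knockout-called: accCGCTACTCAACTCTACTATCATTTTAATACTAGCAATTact
mt-Nd2 chrM:4471-4478, last knockout-called: ccaCATAGGATgaa

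The positions of the 7 control-called and 8 knockout-called footprints of *mt-Nd1* are described by count, and a difference between the lists was not tested. Midpoints were placed in 3 parts of the mRNA of equal length. In this way 2 control-called footprints fell in the 5′ part, 4 in the middle and 1 in the 3′ part. The midpoint of chrM:3382-3390, counted in the middle, lay 66.5% along the mRNA, just before the 3′ part. Of the knockout-called footprints, 4 fell in the 5′ part and 4 in the 3′ part, and the middle held none. The longest stretch of *mt-Nd1* without a knockout-called footprint ran over 449 nt (46.9% of the mRNA), from nucleotide 260 to 708, and it held 4 control-called footprints. The longest stretch of *mt-Nd1* without a footprint of either list was 210 nt, from nucleotide 399 to 608.

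In *mt-Nd2* the 6 control-called footprints fell 3, 2 and 1 in the 5′, middle and 3′ parts. The 5 knockout-called ones fell 2, 3 and 0. The midpoint of the control-called chrM:4594-4615, counted in the middle, lay 66.6% along the mRNA, just before the 3′ part. No knockout-called footprint lay in the last 473 nt (45.6% of the mRNA), from nucleotide 566, where 2 control-called footprints lay. The longest stretch of *mt-Nd2* without a control-called footprint was 325 nt, from nucleotide 166 to 490, and it held 2 knockout-called footprints. Past nucleotide 787, the last 251 nt of the mRNA held no footprint of either list. The lists give no coverage, so a stretch without a footprint cannot be told apart from one too thinly covered to be called.

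**Figure D1:**
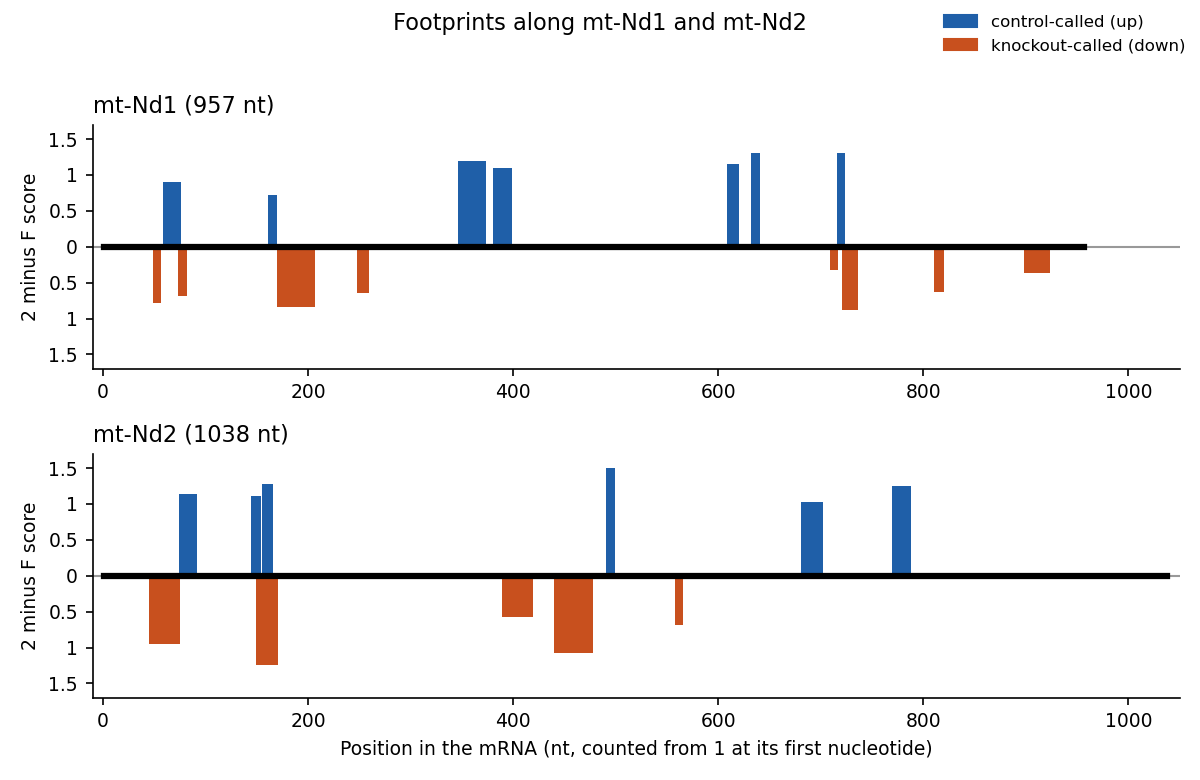
Footprints along *mt-Nd1* (top) and *mt-Nd2* (bottom), with the position in the mRNA in nt on the horizontal axis and 2 minus the F score as bar height, so that taller bars are more protected relative to their flanks. Each bar is 1 footprint as wide as its length, control-called bars point up and knockout-called bars point down, and no knockout-called bar lies between nucleotides 260 and 708 of *mt-Nd1* or past nucleotide 565 of *mt-Nd2*.

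The number of footprints per kb did not differ detectably between both mRNAs in either list. *mt-Nd1* had 7.31 control-called footprints per kb (95% exact Poisson interval 2.94 to 15.1) and *mt-Nd2* had 5.78 (2.12 to 12.6). The density ratio of *mt-Nd1* over *mt-Nd2* was 1.27 (95% exact interval 0.364 to 4.56), with p = 0.784 in a two-sided exact binomial test and an adjusted p of 1 over 3 tests. In the knockout-called list *mt-Nd1* had 8.36 footprints per kb (3.61 to 16.5) and *mt-Nd2* had 4.82 (1.56 to 11.2). That ratio was 1.74 (0.501 to 6.74), with p = 0.41 in the two-sided exact binomial test and an adjusted p of 1. The balance of lists gave an odds ratio of 0.729, control-called over knockout-called in *mt-Nd1* against *mt-Nd2*, with p = 1 in Fisher's exact test, two-sided (95% exact interval of the conditional odds ratio 0.116 to 4.48). These tests compare footprints within 1 track per genotype and not mice, and all 3 intervals hold both an excess and a deficit of *mt-Nd1*.

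The share of nucleotides inside footprints was lower for control-called footprints than over all plus-strand mRNAs and about level with it for knockout-called ones. Control-called footprints covered 101 nt of *mt-Nd1* (10.6%) and 86 nt of *mt-Nd2* (8.29%), beside 16.2% of the 10833 nt of the 10 plus-strand mRNA transcripts. Knockout-called footprints covered 124 nt of *mt-Nd1* (12.96%) and 128 nt of *mt-Nd2* (12.3%), beside 12.4%. With *mt-Nd5*, where they covered 211 nt against 208 nt, these were the mRNAs in which knockout-called footprints covered more nucleotides than control-called ones. Neighbouring nucleotides of a footprint are not independent, and the shares were not tested.

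Most subunits of complex I are encoded in the nucleus, and the 7 that the mitochondrial genome encodes are carried by 6 transcripts, because *mt-Nd4l* and *mt-Nd4* share an mRNA. Control-called footprints per kb were 5.75 for *mt-Nd3*, 5.78 for *mt-Nd2*, 6.00 for *mt-Nd4l/4*, 6.03 for *mt-Nd5* and 7.31 for *mt-Nd1*. These 5 plus-strand complex I mRNAs held the 5 lowest densities of the 13 mRNA and rRNA transcripts, whose highest was 17.5 for *mt-Co1*. The minus-strand *mt-Nd6* had 9.63. The Poisson intervals of neighbouring transcripts in this order overlap widely, and the interval of *mt-Nd1* (2.94 to 15.1) overlaps that of *mt-Co1* (11.5 to 25.4).

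In the knockout-called list the order was different. *mt-Nd1*, with 8.36 footprints per kb, stood behind *mt-Rnr2* alone, the 16S rRNA with 9.48, while *mt-Nd2* ranked 9 of 13. The other complex I transcripts had 6.58 (*mt-Nd5*), 5.78 (*mt-Nd6*), 4.80 (*mt-Nd4l/4*) and 0 (*mt-Nd3*) knockout-called footprints per kb. *mt-Nd1*, with 7 control-called against 8 knockout-called, and *mt-Nd5*, with 11 against 12, were the transcripts of the 13 in which knockout-called footprints were the more numerous. For *mt-Nd1* this was lost with F scores up to the list's median (3 against 3) and with strand ignored (10 against 9). It was kept with footprints of at least 10 nt, with merging and with assignment by midpoint. By the distance between transcripts in both densities, *mt-Nd5* (2.195 footprints per kb apart) and *mt-Rnr1* (2.35) were most like *mt-Nd1*. *mt-Nd4l/4* (0.216) and *mt-Nd5* (1.78) were most like *mt-Nd2* among the 12 other transcripts. These distances have no interval and were not tested.

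**Figure D2:**
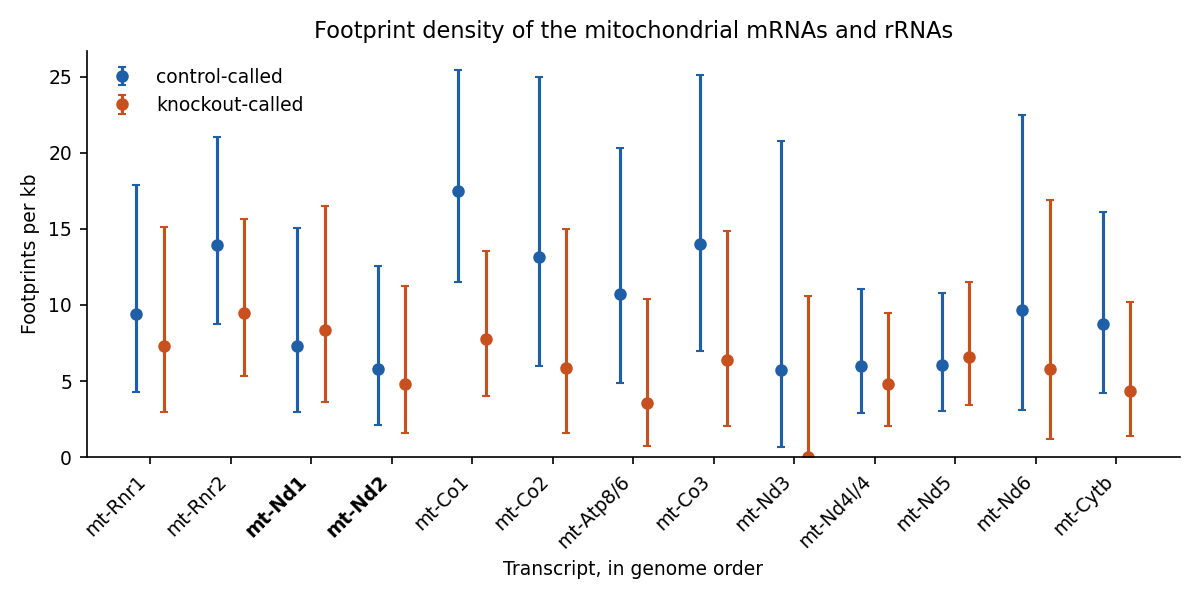
Footprints per kb of each mitochondrial mRNA and rRNA transcript in genome order, for the control-called list and the knockout-called list, with *mt-Nd1* and *mt-Nd2* in bold. Points are counts over length and bars are 95% exact Poisson intervals, which cover the counting of footprints only, and *mt-Nd1* lies at 7.31 control-called and 8.36 knockout-called footprints per kb.

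Control-called and knockout-called footprints met in 3 windows of *mt-Nd1* and 2 windows of *mt-Nd2*. Of the 7 control-called footprints of *mt-Nd1*, 2 shared nucleotides with a knockout-called one and 3 lay within 3 nt of one. Of the 6 of *mt-Nd2*, 3 shared nucleotides and the same number lay within 3 nt. Together 5 of the 13 (38.5%, 95% exact binomial interval 13.9 to 68.4%) shared nucleotides. The share over the 102 control-called footprints of all plus-strand mRNAs was 30.4%, inside that interval. Over both mRNAs 6 of 13 (46.2%, 95% exact binomial interval 19.2 to 74.9%) lay within 3 nt. Over all plus-strand mRNAs 39.2% of the 102 control-called footprints did, so the share was near that background. Of the 13 knockout-called footprints 7 (53.8%) lay within 3 nt of a control-called one, beside 59.7% of the 62 of all plus-strand mRNAs. The same 3 nt serve as the flank in the F score, so that abutting footprints of both lists share the nucleotides their scores were computed from.

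The window nearest the 5′ end of *mt-Nd1* held a control-called footprint of 18 nt, chrM:2809-2826 (codons 20 to 26), with an F score of 1.099 and a C score of -0.02. A knockout-called footprint of 8 nt lay on either side of it. The upstream one, chrM:2799-2806, had an F score of 1.21, a C score of 0.03 and 2 nt between itself and the control-called footprint. The downstream one, chrM:2824-2831, had an F score of 1.31, a C score of 0.002 and 3 shared nucleotides. The span called in the WT thus lay between spans called in the KO. Each call is relative to flanks of 3 nt, and these flanks lay partly inside the footprints of the other list.

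The same arrangement recurred at codons 237 to 246 of *mt-Nd1*. The control-called footprint chrM:3466-3473, 8 nt long, had an F score of 0.69002 and a C score of 0.03. The knockout-called footprint upstream, chrM:3459-3466, shared 1 nt with it and had an F score of 1.67, the highest of the 26, and a C score of 0.15, rank 122 of the 124 of its list counted from the lowest. The knockout-called footprint downstream, chrM:3471-3486, shared 3 nt with it and had an F score of 1.12, the lowest of the knockout-called footprints of *mt-Nd1*.

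At nucleotide 170 of *mt-Nd1* a footprint of each list abutted without a shared nucleotide. The control-called footprint chrM:2911-2919 had an F score of 1.28, rank 177 of 178 in its list counted from the lowest, and a C score of 0.18, rank 175. It was made of 4 adenines and 5 uracils, and so had no guanine for RNase T1 and no cytosine. The knockout-called footprint chrM:2920-2956 began at the next nucleotide, was the longest of *mt-Nd1* with 37 nt (codons 57 to 69), and had an F score of 1.17 and a C score of 0.05.

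In *mt-Nd2* the first footprints of both lists met at a single nucleotide. The knockout-called footprint chrM:3958-3988, 31 nt long, had an F score of 1.05 and a C score of 0.02. The control-called footprint chrM:3988-4004, 17 nt long, had an F score of 0.865 and a C score of -0.34. That C score is a geometric mean ratio of 0.461, highest RNase-treated over mock coverage with 1 added to each.

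The last window was the one place in either mRNA where footprints of both lists overlapped by 50% or more of the shorter footprint. By this rule 2 of the 13 control-called footprints (15.4%) overlapped, beside 14.7% of the 102 of all plus-strand mRNAs. The control-called footprints chrM:4058-4067 and chrM:4069-4078, both 10 nt and 1 nt apart, had F scores of 0.893 and 0.719 and C scores of -0.06 and 0.05. The knockout-called footprint chrM:4063-4083, 21 nt (codons 50 to 57), shared 5 nt with the first and held all 10 nt of the second. Its F score of 0.751 was rank 10 of 124 in its list counted from the lowest and the lowest of the knockout-called footprints of both mRNAs. The stretch was therefore called as protected in each track, over 2 shorter spans in the WT and 1 longer span in the KO.

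**Figure D3:**
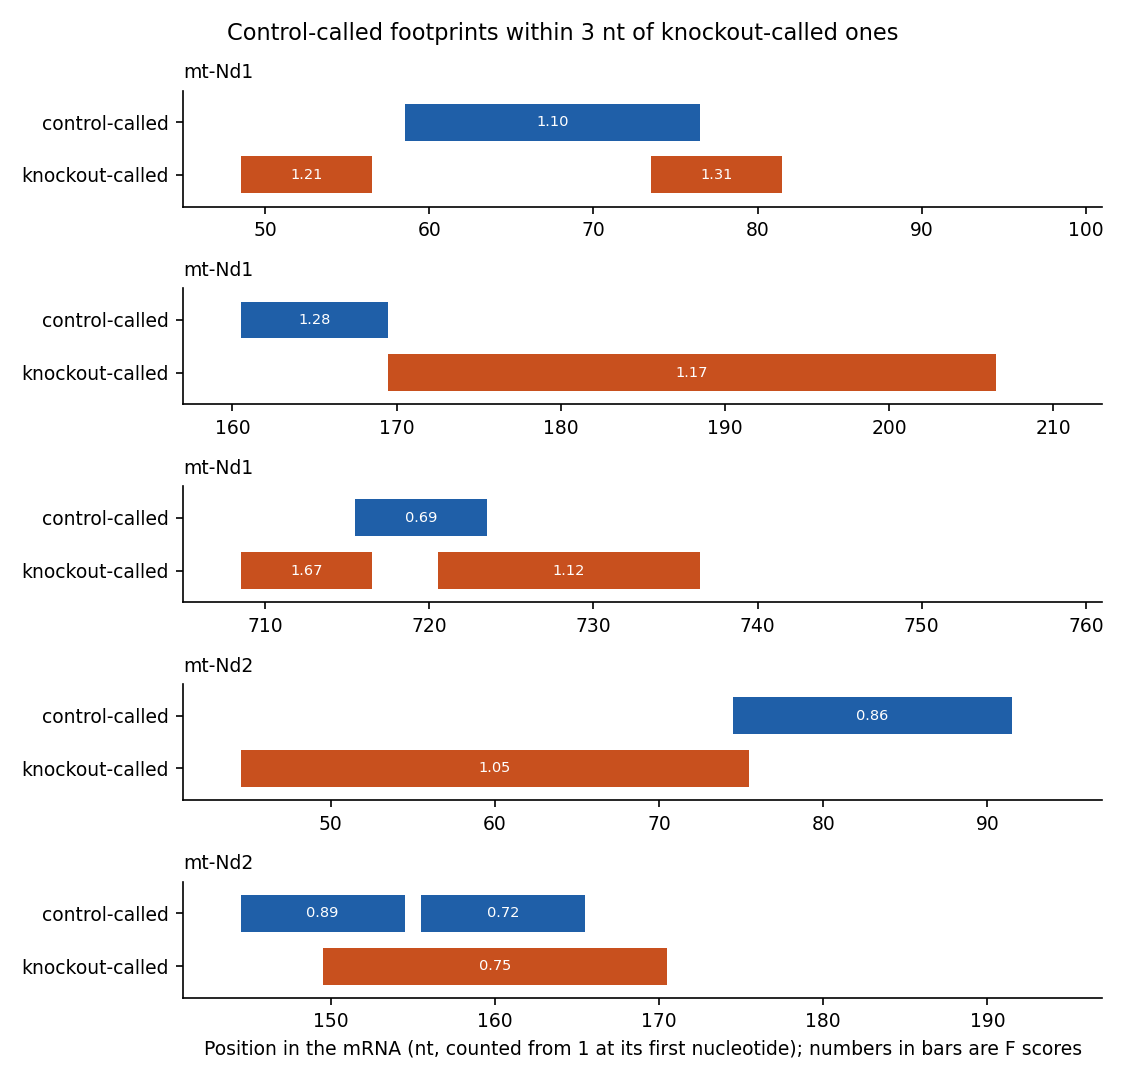
The 5 windows in which a control-called footprint (upper row of each panel) lay within 3 nt of a knockout-called one (lower row), drawn to scale by position in *mt-Nd1* (3 upper panels) or *mt-Nd2* (2 lower panels) in nt. Numbers in the bars are F scores, and the top panel and the third show a control-called footprint between 2 knockout-called ones.

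Control-called footprints outside these windows held the lowest F score of each mRNA. In *mt-Nd1* this was nearly a tie with the 0.69002 of chrM:3466-3473 inside a window, at ranks 48 and 49 of 178. In *mt-Nd1* the footprint chrM:3382-3390, 9 nt at codons 211 to 214, had an F score of 0.6897. Its C score of -0.46, rank 8 of 178 counted from the lowest, is a ratio of 0.347 with 1 added to each coverage. The control-called footprint chrM:3359-3370 lay 11 nt upstream of chrM:3382-3390 and had an F score of 0.852 and a C score of 0.07. Both lay in the stretch of *mt-Nd1* without a knockout-called footprint.

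That stretch also held the 27-nt footprint chrM:3097-3123 (codons 116 to 125), the longest control-called footprint of both mRNAs, with an F score of 0.809 and a C score of -0.15. The footprint chrM:3131-3148, 18 nt long, followed 7 nt downstream with an F score of 0.898 and a C score of -0.18. Across from this pair, 2 control-called footprints and 1 knockout-called footprint lay on the minus strand, and chrM:3131-3148 lay wholly opposite one of them.

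In *mt-Nd2* the footprint chrM:4404-4412, 9 nt at codons 164 to 167, had the lowest F score of all 26, 0.502, rank 9 of 178 in its list, and a C score of -0.34. It held 4 guanines, a run of the base after which RNase T1 cuts when it is unpaired. The longest control-called footprint of *mt-Nd2*, chrM:4594-4615, had 22 nt, an F score of 0.971, the highest of that mRNA and list, and a C score of 0.02. The last, chrM:4683-4700, 18 nt, had an F score of 0.755 and a C score of 0.04 and ended 251 nt before the end of the mRNA.

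Knockout-called footprints outside the windows were 3 in each mRNA. In *mt-Nd1*, chrM:2998-3009 had an F score of 1.35 and chrM:3561-3570 one of 1.36, with C scores of 0.01 and 0.003. The footprint nearest the stop codon of either mRNA was chrM:3649-3673, 25 nt at codons 300 to 308, which ended 34 nt before the end of *mt-Nd1* and had an F score of 1.63 and a C score of 0.02. In *mt-Nd2*, chrM:4303-4332 had 30 nt and an F score of 1.42, the highest knockout-called value of that mRNA. The longest footprint of all 26, chrM:4353-4390, had 38 nt at codons 147 to 159, an F score of 0.929 and a C score of 0.04, and it ended 13 nt before the control-called footprint with the lowest F score. The last, chrM:4471-4478, had 8 nt, an F score of 1.32 and a C score of 0.01.

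Over the members, F scores of control-called footprints ranged from 0.69 to 1.28 in *mt-Nd1* (median 0.852, n = 7) and from 0.502 to 0.971 in *mt-Nd2* (median 0.81, n = 6). The median over the control-called footprints of all plus-strand mRNAs was 0.83. Knockout-called F scores ranged from 1.12 to 1.67 in *mt-Nd1* (median 1.33, n = 8) and from 0.751 to 1.42 in *mt-Nd2* (median 1.05, n = 5), beside a median of 1.36. The ranges of both mRNAs overlap in each list. In *mt-Nd2*, 2 of the 5 knockout-called footprints had an F score under 1, and in *mt-Nd1* none of the 8 had.

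Central C scores of all 13 knockout-called footprints of both mRNAs were above 0, between 0.002 and 0.15, beside 54 of the 62 knockout-called footprints (87.1%) of all plus-strand mRNAs. Of the 13 control-called footprints 6 were above 0, beside 27 of 102 (26.5%), and the values ran from -0.46 to 0.18. On the mean log scale, the knockout-called spans of both mRNAs thus had more ends in the highest RNase treatment than in the mock. The smallest excess was a ratio of 1.005 with 1 added to each coverage, at chrM:2824-2831. By contrast, 4 control-called spans of *mt-Nd1* and 3 of *mt-Nd2* had fewer ends in the highest RNase treatment than in the mock. Because the highest treatment is taken at each nucleotide, a value slightly above 0 need not mean a net gain of ends. The study's methods required of a candidate that its central C score be higher in the experiment than in the control, and do not state whether these roles were exchanged for the knockout-called list. The part of this condition in the sign of the C scores was not tested.

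**Figure D4:**
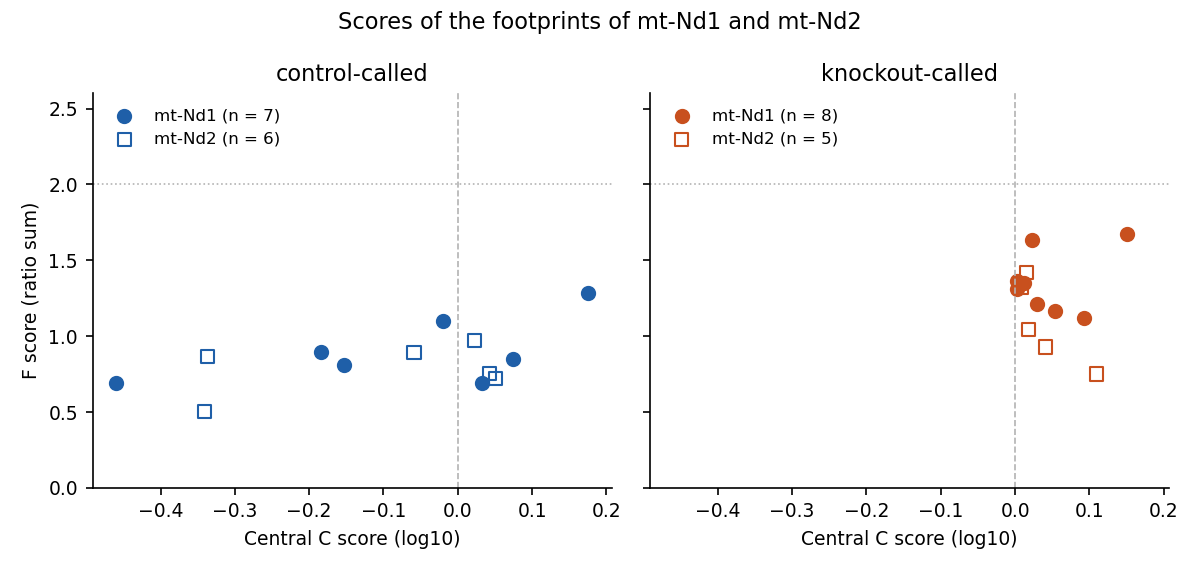
F score (ratio sum, vertical axis) against central C score (log10, horizontal axis) of the control-called (left) and knockout-called (right) footprints of *mt-Nd1* (filled circles) and *mt-Nd2* (open squares), each in the track it was called on. The dashed line marks a C score of 0 and the dotted line an F score of 2, and all 13 knockout-called points lie to the right of the dashed line.

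Lengths ran from 8 to 27 nt in the control-called list and from 8 to 38 nt in the knockout-called list. Median lengths of control-called footprints were 12 nt in *mt-Nd1* and 13.5 nt in *mt-Nd2*, and those of knockout-called ones were 11 nt and 30 nt. Over all plus-strand mRNAs the medians were 14 nt (control-called) and 23 nt (knockout-called), so longer knockout-called footprints were not particular to *mt-Nd2*. All 4 footprints of 30 nt or more were knockout-called, 1 in *mt-Nd1* and 3 in *mt-Nd2*. Elsewhere control-called footprints also reached such lengths, up to 40 nt in *mt-Atp8/6* and *mt-Nd4l/4*. The search covered spans of 8 to 40 nt, and 4 knockout-called and 1 control-called footprint were at its lower end.

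The share of guanine was higher in control-called footprints than outside both lists in both mRNAs, and higher in knockout-called footprints in *mt-Nd2*. Guanine made up 14.9% of control-called nucleotides of *mt-Nd1* and 11.2% of those outside both lists, and 14.0% against 7.14% in *mt-Nd2*. Over all plus-strand mRNAs the shares were 15.2% and 10.4%, a difference in the same direction. In the knockout-called nucleotides guanine made up 11.3% of *mt-Nd1*, close to its share outside both lists, and 10.9% of *mt-Nd2*, above it, beside 14.4% over all plus-strand mRNAs. Guanine counts were small, with 15 control-called guanines in *mt-Nd1* and 12 in *mt-Nd2*, and 3 of the 26 footprints had no guanine.

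Cytosine was at 17.8% in control-called nucleotides of *mt-Nd1* and at 27.2% outside both lists. In *mt-Nd2* the shares were 24.4% and 28.0%, and over all plus-strand mRNAs 23.2% and 26.7%. Uracil was at 33.7% inside control-called footprints of *mt-Nd1* against 29.5% outside both lists, and at 24.4% against 27.6% in *mt-Nd2*, opposite in sign. Since RNase T1 depends on guanine and RNase A on pyrimidines, composition also sets where ends can arise, and its part in the calls was not tested.

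**Figure D5:**
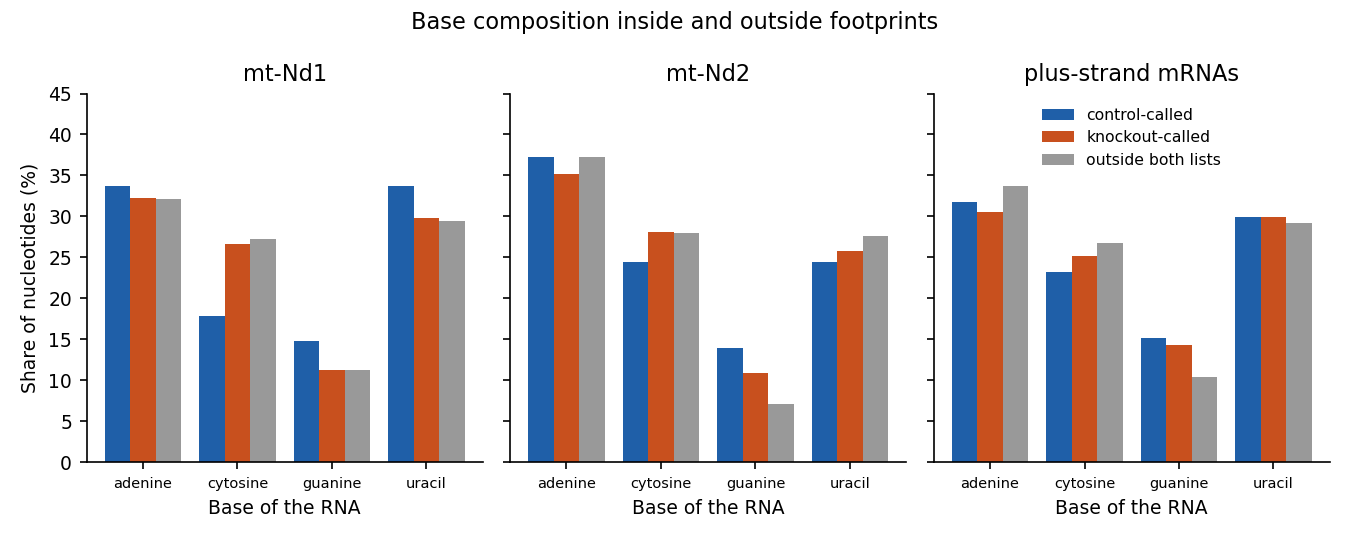
Share of each base (%) among nucleotides inside control-called footprints, inside knockout-called footprints and outside both lists, for *mt-Nd1*, *mt-Nd2* and all plus-strand mRNAs. Bars are shares of pooled nucleotides with no error, and guanine is higher in control-called nucleotides (14.9% and 14.0%) than outside both lists (11.2% and 7.14%) in both mRNAs.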

How the data were processed

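RNase footprinting of heart mitochondria was done with 4 libraries per genotype. Per the study's methods, the authors pooled technical replicates, trimmed reads with cutadapt 1.10, aligned them to mm10 with Bowtie2 2.2.9, rescued multiply mapping pairs that also matched a nuclear copy of mtDNA, retained pairs with templates of 15 to 35 nt, removed nuclear tRNA and Illumina contaminants, and normalized 5′ coverage to library size. Rescued reads and thin coverage can shift C scores. The deposited lists give start, end, length, C score and F score of footprints of 8 to 40 nt that passed an FDR of 5% against C scores shuffled 1000 times. They also hold the authors' log2 fold change of the F score, which was not used. Depth is unknown because the lists hold no counts, and intervals cover the counting of footprints only. The libraries of *Slirp* mice were not analysed here.

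Footprints were assigned to genes by the GENCODE annotation of mm10, and sequences were read from the RefSeq genome of that build (chrM of 16299 nt). Densities were compared with exact binomial tests and the balance of lists with Fisher's exact test, two-sided, adjusted by the Benjamini-Hochberg method over 3 tests at a threshold of 0.05. Full values are given for the footprints of each mRNA and list that had the lowest F score, were longest, first or last, and for pairs within 3 nt. Likeness of transcripts was the Euclidean distance of both densities. Alternatives were footprints of at least 10 nt, F scores up to the list's median, merging within 3 nt, assignment by midpoint, strand ignored, and other overlap rules. The members, lists and tests were chosen with earlier results of these data known. The test functions were run on simulated data. The simulated density tests held 26 footprints each, where each density test here had 13, so power at 13 footprints was not measured. Python 3.11.15, NumPy 2.4.6, pandas 2.3.3, SciPy 1.17.1 and Matplotlib 3.10.9 were used.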

Additional observations from a re-analysis of the deposited data

Results flagged for a closer look

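The minus strand opposite *mt-Nd1*, which was outside the comparisons of the mRNAs, held 4 footprints and was singled out for holding more than the 3 that a count of 0 allows. That is 4.18 per kb (95% exact Poisson interval 1.14 to 10.7), close to the 3.804 per kb (2.92 to 4.88) of the whole minus strand, and the intervals overlap. The whole minus strand also holds genes encoded on it, such as *mt-Nd6*, and the density over antisense sequence alone was not computed. Opposite *mt-Nd1*, the control-called footprints were chrM:3099-3113 (F score 0.846), chrM:3115-3151 (0.837) and chrM:3153-3163 (0.77), with C scores of -0.005, -0.009 and -0.008. The knockout-called footprint there was chrM:3092-3101, with an F score of 1.47 and a C score of -0.02. All lay between nucleotides 3092 and 3163 of chrM. Across from the plus-strand control-called footprint chrM:3097-3123, chrM:3099-3113 shared 15 nt, chrM:3115-3151 shared 9 nt and chrM:3092-3101 shared 5 nt. With chrM:3131-3148, chrM:3115-3151 shared 18 nt, and chrM:3153-3163 shared none with either. Their part in the plus-strand values was not tested.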

How the results depend on the processing

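No adjusted p of the 3 exact tests fell under 0.05 in any alternative, the lowest being 0.662. The density ratio of *mt-Nd1* over *mt-Nd2* ran from 0.868 to 1.81 in the control-called list and from 1.08 to 1.74 in the knockout-called list. It turned below 1, to 0.868, for control-called footprints of at least 10 nt, where 4 footprints of *mt-Nd1* and 5 of *mt-Nd2* were left. With strand ignored, the odds ratio turned from 0.729 to 1.11, with 10 and 6 control-called and 9 and 6 knockout-called footprints. With footprints of at least 10 nt, coverage moved to 7.84% (control-called) and 10.4% (knockout-called) of *mt-Nd1*. With F scores up to the list's median it moved to 4.6% and 6.37% of *mt-Nd1* and to 3.56% and 8.67% of *mt-Nd2*, since fewer footprints were counted. With an overlap of at least 50% of the shorter footprint, 0 control-called footprints of *mt-Nd1* overlapped a knockout-called one in place of 2. The remaining 22 of 31 alternative values stayed on the same side and within the limits set for their kind. No paired analysis was possible because each genotype has 1 library per treatment, combined into 1 track. The libraries' depth is unknown, so footprints missed for thin coverage cannot be counted.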

Other observations

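Opposite *mt-Nd2* the minus strand held 1 footprint, the knockout-called chrM:4056-4072, with an F score of 1.498 and a C score of 0.02. It lay across from the window of *mt-Nd2* where control-called and knockout-called footprints overlapped, and it shared 10 nt with chrM:4058-4067, 4 nt with chrM:4069-4078 and 10 nt with chrM:4063-4083. Over the whole mitochondrial genome the minus strand held 62 of the footprints of both lists.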
